A study of Mus musculus with 3 samples.

Results

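The Hedgehog receptors, effectors and modulators described here are 9 genes, Ptch1, Hhip, Gas1, Cdon, Smo, Sufu, Gli1, Gli2 and Gli3, taken by name from 27179 genes in a table of read counts. All 9 matched a gene ID of the table. The 3 libraries form 1 group: sorted ASPC, that is, adipose stem and progenitor cells, of naive male wild-type C57B6 mice aged 12 weeks, taken from epididymal fat. The cells were freed with Collagenase II and sorted alive as CD45-, CD31-, Ter119-, CD140a+, Sca1+ and PDPN+. No other genotype, treatment, time or cell type was measured, so the comparisons are between genes within a library and between the 3 libraries. Tissue of 3 mice was used, and the labels do not tie each library to 1 mouse, so p-values and SDs measure the spread of these libraries, some of which may be technical.

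Hedgehog proteins are secreted ligands that bind the receptor Ptch1 on a target cell, with Gas1, Cdon and Boc as co-receptors. Without ligand, Ptch1 holds the membrane protein Smo inactive. With ligand, Smo acts in the primary cilium and the transcription factors Gli2 and Gli3 turn from repression to activation of target genes. Among these targets are Ptch1, Hhip and Gli1, the last a GLI factor that acts as an activator. In mesenchymal and adipose precursor cells, active Hedgehog signalling is known to restrain the formation of fat cells.

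Read totals were 25060096 to 32813373 counts per library. The genes of the positively sorted proteins were abundant, with Pdgfra at 1484 ± 14.5 CPM (counts scaled to library size, mean ± SD, n = 3), and Pecam1, the gene of CD31, had 1, 1 and 2 counts. Ptprc, the gene of CD45, had 5.42, 15.8 and 7.68 CPM. Of 5 endothelial markers 0 reached 1 CPM in every library, of 6 macrophage markers 0, of 6 mesothelial markers 0 and of 6 adipocyte markers 0, and their summed levels were at most 0.159, 0.977, 0.473 and 9.47 CPM in a library. The mural list had 1 of 6 (Des, summed level 9.58 to 21.7 CPM), the Schwann list 2 of 5 (Mbp and S100b, 7.72 to 14.4 CPM) and the testis and epididymis list 1 of 6. That gene, Sox9, is also known in mesenchymal progenitors, whereas the sperm protein genes Prm1, Prm2 and Tnp1 had 3 counts or fewer each. Rgs5, Sox10, Adipoq and Cidec were at 0 counts in all 3 libraries. Other genes of the adipocyte and mural lists had reads in some libraries, such as Retn (2, 164 and 0 counts), Plin4 (67, 72 and 0) and Cspg4 (54, 1 and 145). The part of other cells in the results below was not tested, and in bulk RNA fewer cells of a type and less RNA per cell cannot be told apart.

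The 9 genes divided by level. The co-receptor genes Gas1 and Cdon were among the more abundant genes of these cells, and Ptch1, Gli1 and Sufu were near or at 0. Between them, Gli3 lay in the upper part of the detected range, with 68.05% of detected genes below it per kilobase of exon, and Smo (46.7%), Gli2 (25.2%) and Hhip (13.0%) lay below its median. Detection required at least 1 CPM in each of the 3 libraries, which 6 of 9 genes reached: Gas1, Cdon, Gli3, Smo, Gli2 and Hhip. By this rule 35.0% of all genes and 43.7% of protein-coding genes were detected. The 9 genes were chosen by function, with earlier results of these libraries known, so the count is given as a description.

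**Figure D1:**
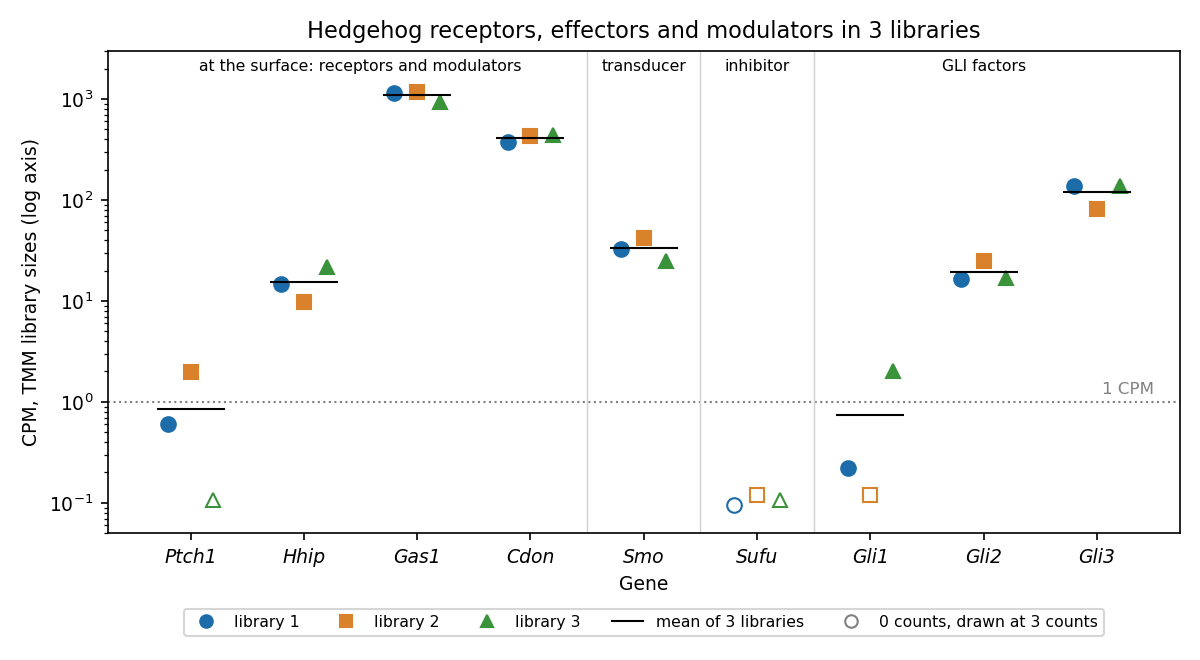
Level of each of the 9 genes in CPM on a log axis, with 1 symbol per library and a line at the mean of 3 libraries; open symbols are libraries with 0 counts, drawn at the level of 3 counts. Gas1 lies between 935 and 1177 CPM, Sufu has 0 counts in every library, and Ptch1 and Gli1 each exceed 1 CPM in 1 library only.

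Ligand genes were almost without reads. Shh and Ihh, the Sonic and Indian hedgehog genes, had 1 count each over the 3 libraries, and Dhh, the Desert hedgehog gene, had 0. Other genes overlap 28.3% of the Shh exon bases and 25.2% of those of Dhh. How reads there were assigned is not given. A count of 0 allows up to 3 counts, which is 0.0945, 0.119 and 0.107 CPM in libraries 1, 2 and 3, counting error only. Of 5 genes that lipidate or release ligand from the producing cell, 2 were detected: Disp1, whose product exports the lipid-bearing ligand, at 29.9 ± 5.38 CPM, and Hhat, the acyltransferase that adds palmitate, at 3.06, 11.1 and 4.68 CPM. The secreted release factor genes Scube1 (74, 0 and 2 counts), Scube2 (1, 1 and 1) and Scube3 (3, 1 and 4) were not detected.

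Ptch1 (gene 19206, chromosome 13, 63508328 to 63573460, GRCm38), the receptor, had 19, 50 and 0 counts. In CPM these were 0.599 (95% exact Poisson interval 0.360 to 0.935), 1.98 (1.47 to 2.61) and 0. Its mean was 0.860 ± 1.02 CPM, and 0.299 without replicate 2. Library 2 was high, library 1 lay between, and the intervals of those 2 libraries did not overlap.

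Hhip (gene 15245, chromosome 8, 79965850 to 80058060), which encodes a membrane protein that captures ligand and is, like Ptch1, a known feedback target of the pathway, stood at 14.8, 9.83 and 21.4 CPM (15.4 ± 5.82). Library 3 was high and library 2 low, the reverse of Ptch1. To compare genes, CPM were divided by the kilobases of exon. On that scale Hhip exceeded Ptch1 38.7-fold in library 1, 7.75-fold in library 2 and at least 313-fold in library 3, where Ptch1 was set to 3 counts. Of the summed CPM per kilobase of Ptch1 and Hhip, Hhip thus held 97.5%, 88.6% and 100%.

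Because these 2 feedback inhibitors are textbook GLI targets with unlike RNA levels, the bases before their start sites are shown. Both are RefSeq sequences of GRCm38.p6, 250 bases ending at the base before a start site, written 5′ to 3′ on the gene's strand (minus for both). The Hhip window is chr8:80058009-80058258 and the Ptch1 window chr13:63565736-63565985, and neither overlaps an annotated exon of GENCODE M21. Both genes as given above extend upstream of these start sites, so that part of the Hhip window and the whole Ptch1 window lie within the gene. Start sites further upstream are not shown. Capitals mark the stretch closest to the GLI consensus GACCACCCA, searched on both strands, the first such stretch where several tied.
Hhip: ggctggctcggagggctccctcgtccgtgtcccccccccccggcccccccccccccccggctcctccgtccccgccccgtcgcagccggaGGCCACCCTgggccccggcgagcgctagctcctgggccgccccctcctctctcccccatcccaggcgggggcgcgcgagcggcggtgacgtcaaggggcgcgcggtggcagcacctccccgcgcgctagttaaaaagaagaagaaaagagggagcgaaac
Ptch1: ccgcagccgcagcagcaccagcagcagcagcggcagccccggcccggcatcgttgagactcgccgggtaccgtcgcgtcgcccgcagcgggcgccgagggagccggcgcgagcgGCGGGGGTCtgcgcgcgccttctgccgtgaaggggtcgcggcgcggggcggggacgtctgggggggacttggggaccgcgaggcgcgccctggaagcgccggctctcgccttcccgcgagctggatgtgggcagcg

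The capitals matched 7 of 9 bases in Hhip and 6 of 9 in Ptch1. A match of at least 7 of 9 was present in 51.8% of 32851 RefSeq windows of this length, and the full motif in 0.225%. Windows were given for 8 of the 9 genes, with none for Gli1. The Cdon window lies inside the gene and holds a Cdon exon, and the Gas1 and Gli3 windows overlap exons of Gm48488 and Gm6556. None of these 8 windows held the motif in full or with 8 of 9 bases, and Smo, Gli2 and Hhip held 7 of 9. That says only that these letters were not in these windows. The GC content was 76.0% for Hhip and 78.4% for Ptch1.

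Co-receptor genes had the highest levels of the 9. Gas1 (gene 14451, chromosome 13, 60174405 to 60177535), a GPI-anchored protein that binds ligand and was named for growth arrest, stood at 1142, 1177 and 935 CPM (1085 ± 131). It ranked 101 of 27179 genes by mean CPM, and by CPM per kilobase 98.5% of 9202 detected genes with an exon length lay below it. Its values varied little, with a coefficient of variation of 12.1%. An antisense gene, Gm48488, overlaps 19.9% of its exon bases, and without a stated strand setting the reads there cannot be told apart.

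Cdon (gene 57810, chromosome 9, 35421528 to 35507652), an immunoglobulin-superfamily co-receptor, stood at 372, 431 and 439 CPM (414 ± 36.7). Its coefficient of variation, 8.86%, was the lowest of the 8 genes with counts. Per kilobase of exon, 90.2% of detected genes lay below Cdon. Boc, the paralog of Cdon and the remaining co-receptor, reached 210, 112 and 190 CPM, with library 2 low.

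Per kilobase, Gas1 exceeded Cdon 8.01-, 7.11- and 5.56-fold in libraries 1 to 3, a difference of 2.77 ± 0.27 in log2(CPM per kilobase + 0.1). The difference had the same sign in 3 of 3 libraries and exceeded its SD (p = 0.25 and adjusted p = 0.25 by a two-sided exact sign-flip permutation test). With 3 libraries 0.25 is the smallest p this test can give, so none of the 8 differences between genes could pass 0.05. Gas1 held 80.2%, 83.1% and 76.0% of the summed CPM per kilobase of Gas1, Cdon and Boc. Cdon held 10.01%, 11.7% and 13.7% and Boc 9.82%, 5.25% and 10.3%. Cdon and Boc were thus close in libraries 1 and 3, and Boc was 2.23-fold below Cdon in library 2.

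The 3 genes nearest to Gas1 in level, by Euclidean distance of log2(CPM + 0.5) over the 3 libraries, were AW112010, Lpl and Rps27l, at distances of 0.113, 0.164 and 0.166. Their means were 1131, 1115 and 1071 CPM. With 3 libraries this measures a like level rather than a shared pattern.

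Smo (gene 319757, chromosome 6, 29735497 to 29761366), the seven-pass membrane protein that Ptch1 restrains, stood at 32.7, 41.9 and 24.8 CPM (33.1 ± 8.58). Its RNA was present in every library, highest in library 2 and lowest in library 3, a 1.69-fold span. Per kilobase, Smo exceeded Ptch1 138-fold in library 1, 53.4-fold in library 2 and at least 584-fold in library 3, with Ptch1 at 3 counts there. On the log2(CPM per kilobase + 0.1) scale the difference was 5.28 ± 0.27, with 1 sign in all 3 libraries (p = 0.25, exact sign-flip test). Ptch1 stood at 0.0422, 0.140 and 0 CPM per kilobase, near or below the added 0.1. The mean and its small SD therefore depend on that 0.1, and the folds above spread more widely.

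Sufu (gene 24069, chromosome 19, 46396896 to 46488804), which holds GLI proteins in the cytoplasm, had 0 counts in all 3 libraries. Its exons span 7691 bases in GENCODE M21, and none of them overlaps the exons of another gene on either strand. Set to 3 counts per library, Sufu was at least 197-, 233- and 175-fold lower than Gli2 per kilobase. How reads were assigned to this gene is not given in the sources used here, and whether a transcript was present but not counted was not tested. The same holds for the low counts of Ptch1 and Gli1. Of 15 broadly expressed genes chosen after the data were seen, 14 were detected. The gene not detected, Rab7, a gene of late endosomes, had 2, 19 and 40 counts. Polr2a, among the 14, had 668, 202 and 34. Whether these values bear on Sufu was not tested.

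Among the GLI factors, Gli3 RNA was highest, Gli2 followed and Gli1 was near 0. Gli3 (gene 14634, chromosome 13, 15463723 to 15730026), the main source of the GLI repressor, stood at 136, 81.9 and 139 CPM (119 ± 32.1), with library 2 low. Gli2 (gene 14633, chromosome 1, 118834061 to 119054405), the main activator that transmits the signal, stood at 16.7, 24.7 and 16.8 CPM (19.4 ± 4.598), with library 2 high. Library 2 was thus the lowest of the 3 in Gli3 and the highest in Gli2.

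Gli1 (gene 14632, chromosome 10, 127329882 to 127341579), an activator whose transcription is itself a standard readout of the pathway, had 7, 0 and 56 counts. In CPM these were 0.221 (95% exact Poisson interval 0.0887 to 0.454), 0 and 2.00 (1.51 to 2.60). Its mean, 0.740 ± 1.097 CPM, fell to 0.110 without replicate 3. Library 3 was high in Gli1 and at 0 in Ptch1, while library 2 was at 0 in Gli1 and high in Ptch1. Arhgap9 and Gm47200 overlap 6.55% of the Gli1 exon bases on the opposite strand.

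Gli3 exceeded Gli2 by 2.08 ± 0.74 and Gli1 by 5.98 ± 0.97 in log2(CPM per kilobase + 0.1), each with 1 sign in all 3 libraries (p = 0.25 for both, exact sign-flip test). The mean and SD over Gli1, which stood at 0.0441, 0 and 0.400 CPM per kilobase, depend on the added 0.1. In linear terms Gli3 was 5.86-, 2.38- and 5.91-fold above Gli2 per kilobase. Over Gli1 it was 322-fold higher in library 1, at least 359-fold in library 2 and 36.1-fold in library 3. Gli3 held 85.2%, 70.4% and 83.5% of the summed CPM per kilobase of the 3 factors, Gli2 14.5%, 29.6% and 14.1%, and Gli1 0.264%, 0% and 2.32%. These are shares of RNA. The table does not measure GLI protein or its cleavage, which sets whether Gli2 and Gli3 activate or repress.

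**Figure D2:**
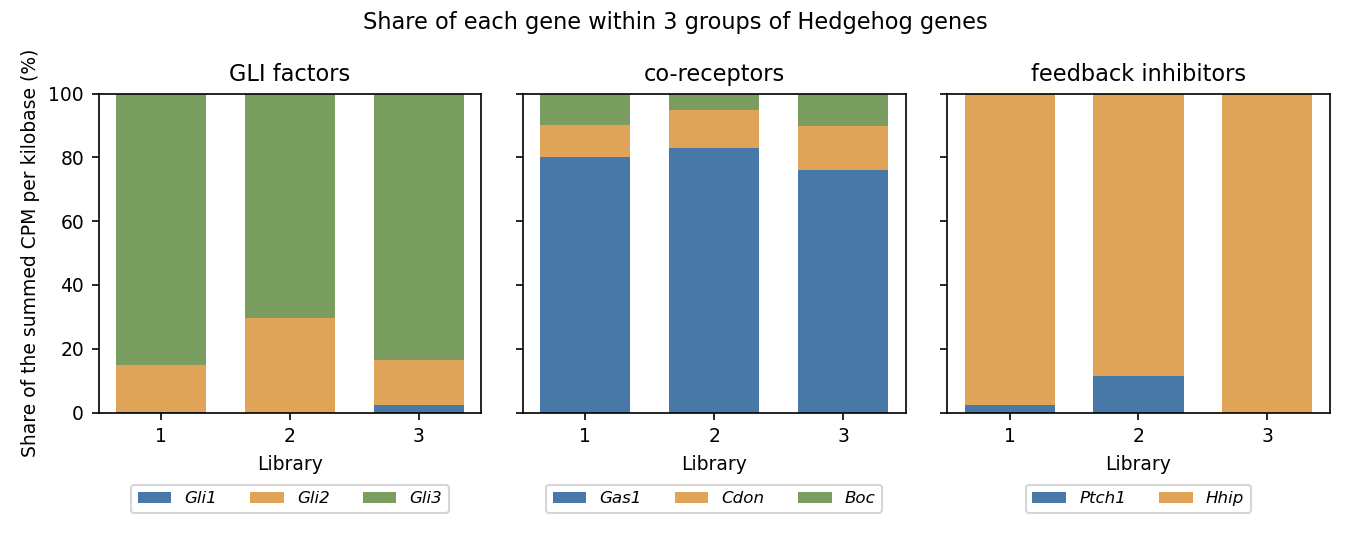
Share of each gene in the summed CPM per kilobase of exon, in percent, for 3 groups of genes (panels) in each of 3 libraries (bars). Gli3 holds 70.4% to 85.2% of the GLI factors, Gas1 76.0% to 83.1% of the co-receptors, and Hhip 88.6% to 100% of Hhip and Ptch1.

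Ordered by mean CPM per kilobase, the 9 genes stood as Gas1 (366 ± 44.2), Cdon (53.6 ± 4.75), Gli3 (12.4 ± 3.35), Smo (5.89 ± 1.53), Gli2 (2.82 ± 0.669), Hhip (1.69 ± 0.641), Gli1 (0.148 ± 0.220), Ptch1 (0.0606 ± 0.0716) and Sufu (0). The median over all genes with an exon length was 0.371 and over detected genes 6.55 CPM per kilobase. Neighbours from Gas1 down to Gli2 differed by more than the SD of their within-library difference and in 3 of 3 libraries. Gli2 was also above Hhip in 3 of 3 libraries, but by less than that SD, 0.75 ± 0.82 on the log2(CPM per kilobase + 0.1) scale. Hhip exceeded Gli1 by 3.15 ± 0.74, in 3 of 3 libraries, a mean and SD that depend on the added 0.1. The order of the last 3, Gli1, Ptch1 and Sufu, was within their spread (0.36 ± 1.82 for Gli1 over Ptch1). By CPM without length Ptch1 (0.860) stood above Gli1 (0.740).

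**Figure D3:**
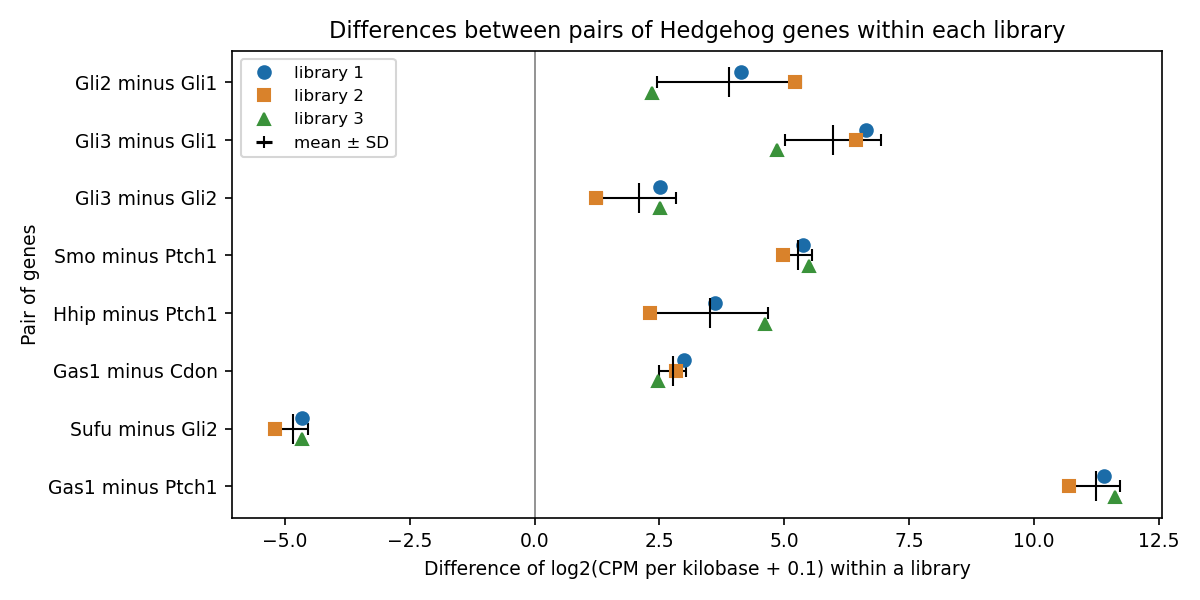
Difference of log2(CPM per kilobase + 0.1) between 2 genes of a pair within each library (symbols), with the mean and SD over 3 libraries (black). In every pair drawn the 3 libraries lie on the same side of 0. Values and SDs that involve Ptch1, Gli1 or Sufu depend on the added 0.1, as these genes were at 0 or near 0.1 in most libraries.

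Between libraries, 0 of the 8 genes with counts passed the test for a change. The quasi-likelihood test of edgeR compared 1 library at a time with the remaining 2, and in it the lone library is assumed to vary as the others do. Of 13289 genes tested, 0.00% were called higher or lower in any library at an adjusted p under 0.05, and 502, 649 and 696 had an unadjusted p under 0.05 in libraries 1, 2 and 3. Sufu had no counts to test. The other 8 genes gave an adjusted p of 0.895 to 0.999 over 24 comparisons (edgeR), with no unadjusted p under 0.111. DESeq2's Wald test, which called 1.12%, 1.66% and 1.61% of genes in the 3 libraries, called 0 of the 8 (smallest adjusted p 0.662). DESeq2 gave no adjusted p to some genes of low mean count, and its shares are of the 11228, 12000 and 12258 genes that had one. Scube1 (mean 0.801 CPM) had none in libraries 1 and 2. The mean of Gli1 was lower (0.740 CPM), so DESeq2 could not call Gli1 in those libraries. A p that misses the threshold does not show that the libraries were alike: Ptch1 and Gli1 each ran from 0 to 50 or more counts.

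That pattern, 3 counts or fewer in a library and 30 or more in another, was found in 16.8% of 12556 genes with 30 or more counts in a library. Among the 8 genes with counts it was found in Ptch1 and Gli1. The Poisson intervals given for these 2 genes cover the counting error of reads only. They may be too narrow where PCR copies of a molecule are counted as separate reads.

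The rest of the pathway was read from 8 lists of 65 further genes, of which 48 (73.8%) were detected, beside 43.7% of protein-coding genes. Their median was 3.77 CPM per kilobase, and that of the 9 genes 2.82. Of 5 other surface genes, 4 were detected: Boc, Mgrn1 (88.8 ± 19.8 CPM) and Mosmo, the last 2 known to lower the amount of Smo at the cell surface, and the glypican gene Gpc3 (6.11 ± 2.12 CPM). Lrp2, a large endocytic receptor that takes up ligand, had 3, 1 and 5 counts.

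Genes of the primary cilium, where Smo and the GLI proteins act, were mostly detected. Of 15 genes of intraflagellar transport and its motors, 14 were, with Ift20 (156 ± 45.6 CPM), the kinesin subunit Kif3a (80.1 ± 28.6), Ift57 (62.2 ± 31.0) and Ift27 (37.0 ± 10.6) highest per kilobase. The remaining gene, Ift140, had 168, 6 and 576 counts. Of 11 ciliary regulators of the pathway, 7 were detected, led per kilobase by the small GTPase gene Arl13b (59.4 ± 18.8 CPM) and Evc2 (56.4 ± 14.2), part of a complex that carries the Smo signal. Efcab7, of the same complex, had 2, 878 and 772 counts. Gpr161, a ciliary receptor that keeps the pathway off, had 0, 47 and 0, and the GLI-binding kinesin gene Kif7 stood at 2.84, 4.36 and 0.893 CPM.

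Of 12 genes in the list of kinases and kinase subunits of the pathway, 10 were detected. In the list of ubiquitin ligases and genes that work with them, 7 of 7 were. The share of all protein-coding genes was 43.7%. Prkar1a, a regulatory subunit of protein kinase A, led with 311 ± 10.9 CPM, followed per kilobase by the casein kinase genes Csnk1a1 (223 ± 13.5) and Csnk1d (63.6 ± 21.5). Of the catalytic subunits of protein kinase A, Prkacb stood at 109 ± 15.95 CPM and Prkaca had 1, 0 and 3 counts. As with Sufu, whether Prkaca transcripts were present but not counted was not tested. Stk36, a kinase that binds Sufu and GLI proteins, had 36, 0 and 305. Spop (77.0 ± 5.65 CPM) and Cul3 (108 ± 52.3), which act together on full-length GLI proteins, and Cul1 (95.6 ± 17.4) and Fbxw11 (86.9 ± 15.98), of the ligase for phosphorylated forms, were highest per kilobase in the ubiquitin list.

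Of 7 other genes described as Hedgehog targets, 4 were detected, Ccnd2 (73.2 ± 8.17 CPM), Foxf2 (13.2 ± 4.43), Bcl2 (31.0 ± 12.8) and Ccnd1 (15.2 ± 7.38). These genes answer to many signals. Foxf1 had 0, 1 and 0 counts, Foxl1 1, 1 and 2, and Mycn 227, 0 and 0. With Ptch1, Gli1 and Hhip added, 5 of the 10 were detected (50.0%), a share near the 43.7% of all protein-coding genes.

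**Figure D4:**
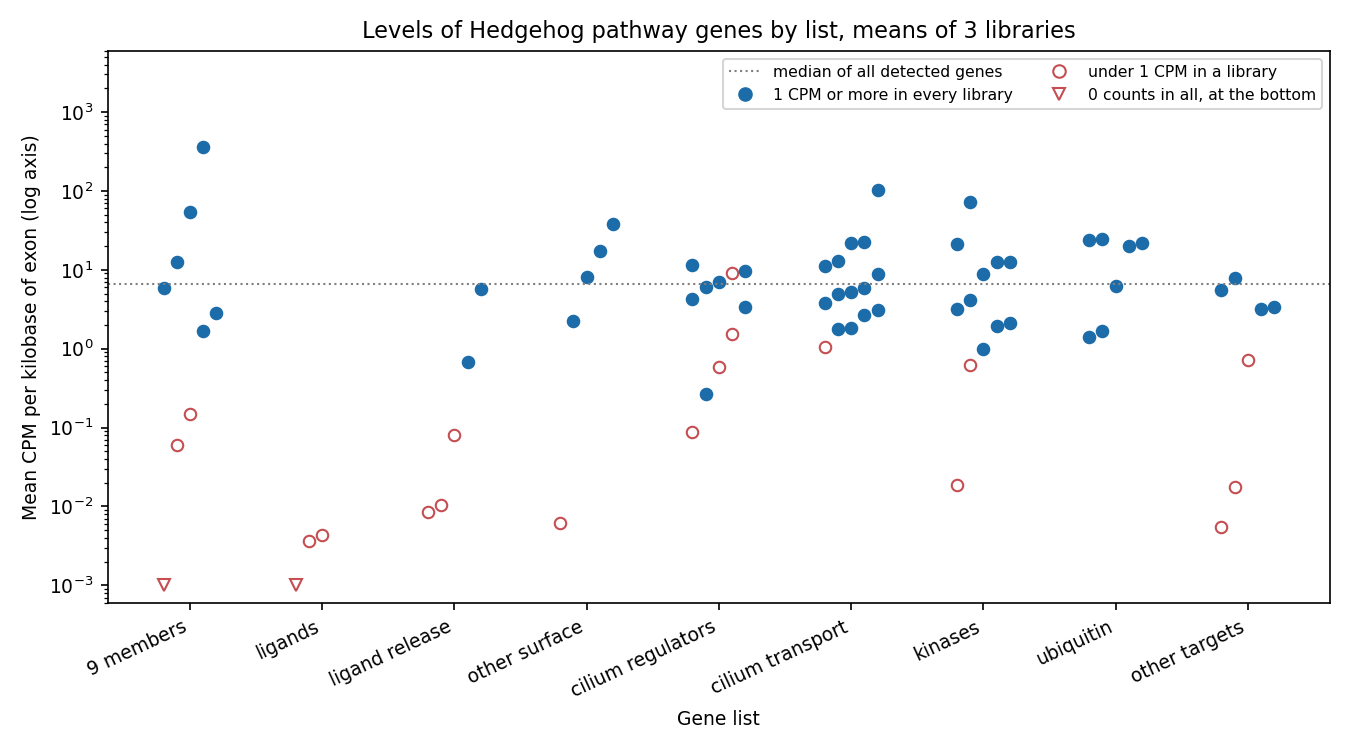
Mean CPM per kilobase of exon on a log axis for each gene of the 9 and of 8 further lists (columns); filled points reached 1 CPM in every library, open ones did not, and triangles had 0 counts. The 3 ligand genes lie at the bottom, and 14 of 15 cilium transport genes and 7 of 7 ubiquitin genes are filled.

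Of these 65 genes, 56 had enough counts for the library test. It left out the ligand genes and Scube2, Scube3, Lrp2, Prkaca, Foxf1 and Foxl1. Across the 56, edgeR's quasi-likelihood test called 0 of 168 comparisons of a library with the other 2, and 5 had an unadjusted p under 0.05. DESeq2's Wald test called 2, a share near its 1.12% to 1.66% over all genes: Efcab7 in library 1 (log2 difference -8.94, adjusted p = 3.29e-07) and Ift140 in library 2 (-5.77, adjusted p = 0.0250). With no filter beyond 1 count edgeR's test also called Efcab7 in library 1 (-8.85, adjusted p = 0.00057). Each of these tests sets 1 library against 2, so the spread of the lone library was not measured.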

How the data were processed

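RNA was measured in 3 samples of 1 group. The kit was SMARTer Ultra Low Input RNA Kit V4, as the labels' protocols state, and CASAVA 1.8.2, STAR 2.3.0 and mm10 are named in the submitters' processing notes. Which tool counted the reads, with which annotation and strand setting, is not given in the sources used here. Deposited values are raw counts of reads for each NCBI gene ID. Columns were matched to samples by the number in their titles.

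Symbols and coordinates came from RefSeq GRCm38.p6 (25275 of 27179 IDs matched), and exon lengths, the union of a gene's exons, from GENCODE M21 (21573 IDs). CPM used TMM library sizes from edgeR 4.0.16 (R 4.3.3). DESeq2 1.42.0 gave alternatives. The library test took genes with 10 counts or more in at least 1 library, with Benjamini-Hochberg adjustment. It was also run on simulated data, whose outcome is not reported here, so its power in these libraries is not shown. Python 3.11.15, numpy 2.4.6, pandas 2.3.3 and scipy 1.17.1 were used. Intervals and the 3-count limit cover counting error only. That limit is one-sided and lies below the upper end of the two-sided interval for 0 counts, such as 0.132 CPM for Ptch1 in library 3. Folds given as at least a value rest on the 3-count limit and take the count of the other gene as measured.

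The members and lists were chosen with earlier results of these data known, and some genes of the lists are not reported here. The text names all 9 members, up to 4 genes per list with the highest mean CPM per kilobase, genes at 0, up to 5 needed for a count, the sort genes and the 3 genes nearest to the most abundant member. The broadly expressed genes, the rule of 3 and 30 counts and Boc's place beside the members were added after the data were seen.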

Additional observations from a re-analysis of the deposited data

How the results depend on the processing

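The order of Gli1 and Ptch1 depended on the setting: Gli1 was higher per kilobase, whereas Ptch1 was higher by CPM without length (0.860 against 0.740) and in the CPM without replicate 3 (1.29 against 0.110). The count of 6 detected members was the same in 8 alternatives. All 64 alternative values of the 8 differences between genes kept their sign, which for most was fixed in advance. Each difference had 1 sign in all 3 libraries, so another pseudocount, other size factors or a library left out could not reverse it. Only the longest transcript or CPM without length could have done so. Gas1 minus Cdon ranged from 1.39 (CPM without length) to 2.91, and Hhip minus Ptch1 from 1.93 (pseudocount 0.5) to 5.24 (pseudocount 0.01). Gas1 minus Ptch1 ranged from 9.35 to 13.1, Gli3 minus Gli2 from 1.86 to 2.60, Gli2 minus Gli1 from 2.39 to 5.56, Gli3 minus Gli1 from 4.33 to 8.15, Smo minus Ptch1 from 3.49 to 7.08 and Sufu minus Gli2 from -8.12 to -2.71. Leaving out a library moved the mean of Ptch1 to between 0.299 and 1.29 CPM and that of Gli1 to between 0.110 and 1.11 CPM. Detected genes of ligand release fell from 2 to 1 at 5 CPM and to 1 at 1 CPM per kilobase, a threshold added after the data were seen, and the other list counts stayed within 1.5 times. Genes called between libraries, 0 with edgeR, were 126, 199 and 197 with DESeq2's Wald test for libraries 1, 2 and 3. They were 16 (Efcab7 among them), 16 and 36 with edgeR and no filter beyond 1 count, and 1 in library 2 with 10 counts or more required in every library. The cause was not tested. Leaving out a library from that test leaves 1 against 1, with no residual degrees of freedom, so it was not run. No paired analysis was possible because there is only 1 group. Depth limits the statements on the ligand genes, which had 1 count or 0 over the 3 libraries, as does the exon overlap of Shh and Dhh with other genes. Ptch1 and Gli1 differed between libraries by more than their counting intervals, which may be too narrow where PCR copies are counted as reads.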
